A study of Arabidopsis thaliana with 15 samples.

Results

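JAZ1 to JAZ10 are jasmonate ZIM-domain repressors of Arabidopsis thaliana, and their transcripts were followed in seedlings of 2 wild-type sets and 3 mutants. The members were the 10 rows of the deposited gene table with these loci, of 32548 rows in all: AT1G19180 (JAZ1), AT1G74950 (JAZ2), AT3G17860 (JAZ3), AT1G48500 (JAZ4), AT1G17380 (JAZ5), AT1G72450 (JAZ6), AT2G34600 (JAZ7), AT1G30135 (JAZ8), AT1G70700 (JAZ9) and AT5G13220 (JAZ10). Each of the 10 had a mean above 1 normalised read in every group, so all passed the filter on low values that 25085 genes passed. The rule uses gene names alone and no measured value, although the family was chosen with earlier results of these data known.

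The 15 libraries were made from whole seedlings of the Col-0 ecotype, aged 11 days, in 5 groups of 3. Plants grew without treatment on Murashige and Skoog plates at 22 °C with 16 h of light and 8 h of dark. The sets Col-0_1 and Col-0_2 are wild type. The labels give wrky-qm the genotype wrky7-/-11-/-17-/-21-/-39-/-, a homozygous mutant of 5 WRKY transcription factor genes. The group wrky-qm_15_hz carries the same mutations and is heterozygous for wrky15 (wrky15+/-). The group obe1-2 is the double mutant obe1-/- obe2-/-, in which OBERON genes, encoding PHD-finger nuclear proteins, are mutated. The labels name no alleles and tie no wild-type set to a mutant. Nor do they state whether the replicates were separate cultures, and p-values thus measure the spread between libraries, which may be technical.

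Jasmonates are lipid-derived hormones made after wounding, herbivory and infection by necrotrophs, and they slow growth. At rest, JAZ proteins bind MYC transcription factors and hold them silent through the adaptor NINJA and the corepressor TOPLESS (TPL). The active hormone, jasmonoyl-isoleucine, fits between the F-box protein COI1 and the Jas motif of a JAZ protein, which is then degraded, and the freed MYC factors switch on targets that include most JAZ genes themselves. JAZ transcripts are therefore widely used as a readout of jasmonate signalling, while the new protein works as a brake. JAZ7 and JAZ8 lack the canonical degron that COI1 recognises and recruit TPL directly through an EAR motif, and JAZ10 is known for splice forms that resist degradation.

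In the RefSeq annotation of TAIR10.1, 7 members lie on chromosome 1, as genes of their own that overlap no other gene: JAZ5 (5955155 to 5957511, minus strand), JAZ1 (6621777 to 6623668, plus), JAZ8 (10596352 to 10597341, plus), JAZ4 (17931390 to 17934662, plus), JAZ9 (26654529 to 26657350, plus), JAZ6 (27273968 to 27276562, minus) and JAZ2 (28148574 to 28150446, minus). JAZ7 lies on chromosome 2 (14573030 to 14573952, plus), JAZ3 on chromosome 3 (6119707 to 6123044, plus) and JAZ10 on chromosome 5 (4218786 to 4221077, plus). Each gene has 1 value per library, over all its transcripts.

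MYC factors bind the G-box, CACGTG. It was found in the windows from 250 bases before to 50 bases after the annotated start of JAZ2, JAZ3, JAZ7 and JAZ8, that is in 4 of the 9 members whose windows are described, compared with 7.68% of 27443 protein-coding windows of the same size. Each match is shown with 20 bases on either side, because JAZ7 and JAZ8 rose most of all members in every mutant while JAZ2 and JAZ3 moved least among those with the motif. Sequences are from the RefSeq record of TAIR10.1, read 5′ to 3′ on the strand of the gene, with the G-box in capitals.
JAZ2 (chr1:28150487-28150532, minus strand): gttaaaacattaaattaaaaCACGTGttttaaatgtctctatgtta
JAZ3, upstream match (chr3:6119547-6119592, plus strand): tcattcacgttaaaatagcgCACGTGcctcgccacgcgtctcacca
JAZ3, downstream match (chr3:6119605-6119650, plus strand): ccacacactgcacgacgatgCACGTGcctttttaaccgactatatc
JAZ7 (chr2:14572976-14573021, plus strand): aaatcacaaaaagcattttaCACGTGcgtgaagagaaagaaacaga
JAZ8 (chr1:10596322-10596367, plus strand): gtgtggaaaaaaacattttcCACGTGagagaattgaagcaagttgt

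The G-box began 66 bases before the start in JAZ2, 140 and 82 bases before it in JAZ3, 34 bases before it in JAZ7 and 10 bases before it in JAZ8. The related T/G-box, AACGTG on either strand, was found in JAZ3, JAZ5 and JAZ6 (8.95% of all windows). The core of the W-box that WRKY factors bind, TTGAC on either strand, was found in JAZ4, JAZ6, JAZ7 and JAZ8, and 50.5% of all windows held it. Windows of JAZ9 and JAZ10 held none of these letters. No match overlapped another, and a match describes letters only: binding was not measured.

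The full windows of JAZ7 and JAZ8, the members that rose most, are given with every match to these motifs in capitals. On the strand shown, a W-box core read from the opposite strand appears as GTCAA.
JAZ7 (chr2:14572780-14573079, plus strand): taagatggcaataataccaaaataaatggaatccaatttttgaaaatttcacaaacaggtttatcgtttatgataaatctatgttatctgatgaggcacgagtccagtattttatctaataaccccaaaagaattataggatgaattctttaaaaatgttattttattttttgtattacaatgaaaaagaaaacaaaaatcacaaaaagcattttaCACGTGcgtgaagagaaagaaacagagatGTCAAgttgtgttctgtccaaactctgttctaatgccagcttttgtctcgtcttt
JAZ8 (chr1:10596102-10596401, plus strand): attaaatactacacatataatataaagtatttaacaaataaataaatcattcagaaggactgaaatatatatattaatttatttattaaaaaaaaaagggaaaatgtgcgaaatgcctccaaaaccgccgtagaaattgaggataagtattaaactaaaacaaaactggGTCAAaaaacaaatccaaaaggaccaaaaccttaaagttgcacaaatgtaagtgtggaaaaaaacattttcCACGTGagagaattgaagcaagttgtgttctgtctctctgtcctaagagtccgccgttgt

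**Figure D1:**
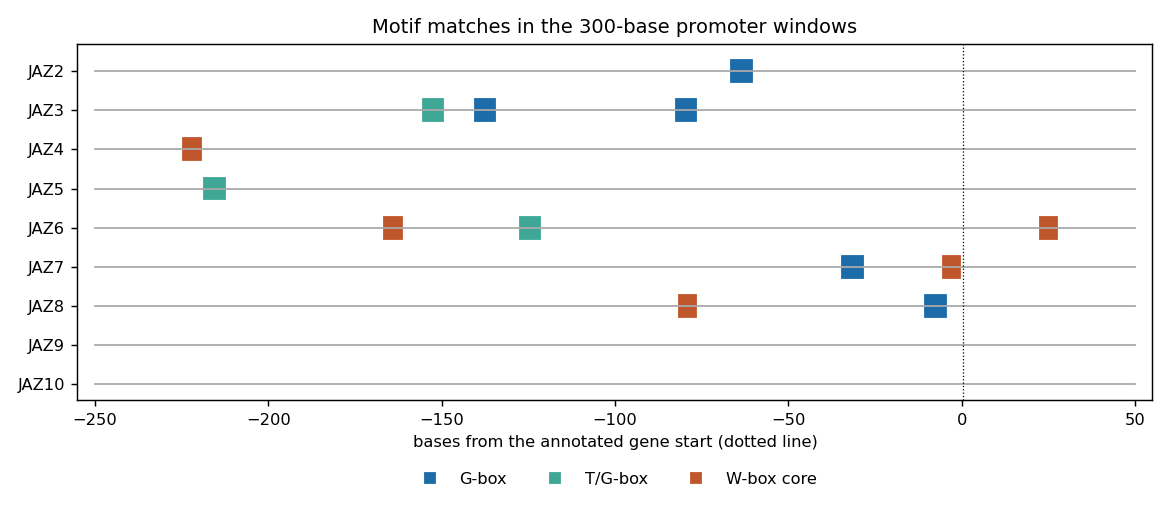
Matches to the G-box, the T/G-box and the W-box core in the windows of 9 members, in bases from the annotated start (dotted line; negative values lie before it). G-boxes lie in JAZ2, JAZ3, JAZ7 and JAZ8, and the windows of JAZ9 and JAZ10 hold no match.

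Values are normalised reads, a form of read count that the authors deposited without naming its unit, and library totals ran from 44049333 to 49934976. Replicates differed little, with a median coefficient of variation of 3.63% to 4.76% per group in genes of mean 1000 or more. The green-tissue genes RBCS1A and LHCB1.1 and the root endodermis genes CASP1 and CASP2 were detected in every group, so the libraries held both shoot and root RNA. Of these and the seed storage genes CRA1 and CRC, 6 markers in all, 2 rose and 1 fell in wrky-qm, 2 rose and 4 fell in wrky-qm_15_hz, and 3 fell in obe1-2 with none rising. Over all genes, 15.5% were called higher and 11.4% lower in wrky-qm, 26.5% and 27.4% in wrky-qm_15_hz, and 29.2% and 32.5% in obe1-2. LHCB1.1 stood at 38114 ± 1806 in obe1-2 and 78331 ± 2862 in wrky-qm_15_hz. It had 211769 ± 6922 in Col-0_1, 155945 ± 3578 in Col-0_2 and 207171 ± 11888 in wrky-qm. CASP1 stood at 331 ± 15.1 in wrky-qm_15_hz and between 1064 ± 104 and 1332 ± 98.1 in the other groups. CRC reached 4189 ± 90.6 in wrky-qm and 10916 ± 221 in wrky-qm_15_hz, was at most 44.5 ± 8.11 elsewhere and was listed at 0 in Col-0_1. The part of these organ differences in the JAZ results was not tested. In whole seedlings, fewer cells of a type and less RNA per cell cannot be told apart. In obe1-2, OBE1 stood at 11.1 ± 4.66 (SD, n = 3) (wild-type sets 2194 ± 161 and 2546 ± 109), while OBE2 kept 1811 ± 75.8 against 3813 ± 111 and 4279 ± 128. In wrky-qm, WRKY17 fell to 184 ± 19.4 from 1028 ± 94.9 and 849 ± 33.3, but WRKY7, at 1844 ± 81.0, and WRKY11, at 2864 ± 186, were above both wild-type sets. WRKY15 was also higher, at 3129 ± 132 in wrky-qm and 2637 ± 69.1 in wrky-qm_15_hz against 795 ± 85.7 and 1006 ± 68.9. WRKY21 and WRKY39 fell by 0.62 and 0.53 on the log2 scale in wrky-qm. In wrky-qm_15_hz, WRKY17 and WRKY39 fell by 1.19 and 0.82, WRKY7 and WRKY11 rose by 0.46 and 1.71, and WRKY21 was not called. Since no alleles are named, these gene totals do not check the genotypes, and the WRKY groups are named here as labelled.

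In wild type, JAZ2 and JAZ6 had the highest levels among the members, JAZ1 to JAZ10. Per kilobase of exon, which allows genes to be compared, JAZ2 reached 763 ± 25.6 normalised reads in Col-0_1 and 901 ± 23.6 in Col-0_2 (SD, n = 3 here and below). JAZ6 followed at 486 ± 12.1 and 618 ± 16.9. JAZ1, JAZ3 and JAZ9 formed a middle tier between 277 ± 45.8 (JAZ1 in Col-0_1) and 520 ± 15.5 (JAZ1 in Col-0_2). JAZ4 stood at 117 ± 16.8 and 137 ± 2.68, and JAZ10 at 45.2 ± 2.19 and 37.3 ± 3.75 per kilobase. JAZ5, JAZ7 and JAZ8 came last, at 24.8 ± 2.41, 6.40 ± 2.57 and 1.92 ± 0.716 in Col-0_1. Libraries of JAZ3 and JAZ1 overlapped in Col-0_1. In Col-0_2 those of JAZ3 and JAZ9 overlapped, as did those of JAZ5, JAZ7 and JAZ8 in that order. These neighbours in the order were therefore not separated. JAZ12, counted below among the other TIFY proteins, was not ranked per kilobase. Without division by exon length it had 2200 ± 81.3 normalised reads in Col-0_1 and 2142 ± 84.5 in Col-0_2. On that scale JAZ2 had 1050 ± 35.2 and 1238 ± 32.5.

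The wild-type sets were themselves not alike, in these members as over all genes. The counts that follow lie near the shares of all genes and are not a result about the family. JAZ1, JAZ2 and JAZ6 were higher in Col-0_2 than in Col-0_1 and JAZ9 was lower, 3 and 1 of 10 members beside 13.7% and 9.52% of all genes called in these directions (limma-trend, Benjamini-Hochberg adjusted over 25085 genes, threshold 0.05). JAZ1 had 586, 492 and 421 normalised reads in the Col-0_1 libraries and 946, 906 and 960 in Col-0_2. These sets did not overlap, with a difference of 0.92 on the log2 scale (SE 0.079, adjusted p = 1.56e-08). The JAZ2 call between the sets was lost without replicate 2 of Col-0_1 (adjusted p = 0.0597) or of Col-0_2 (adjusted p = 0.0572). The libraries of the sets did not overlap for 3 higher members (5011 of 25085 genes) and for 2 lower ones, JAZ9 and JAZ10 (18.2%). JAZ9 had 787, 795 and 856 in Col-0_1 against 629, 526 and 579 in Col-0_2, and fell by 0.49 on the log2 scale (SE 0.063, adjusted p = 3.73e-06). A change in a mutant is therefore called only if both sets show it with the same sign, and the larger of the p-values is the one adjusted and given. Fold changes are relative to the average of these sets. They are computed from log2(value + 1), so those of members with few reads come out too small.

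**Figure D2:**
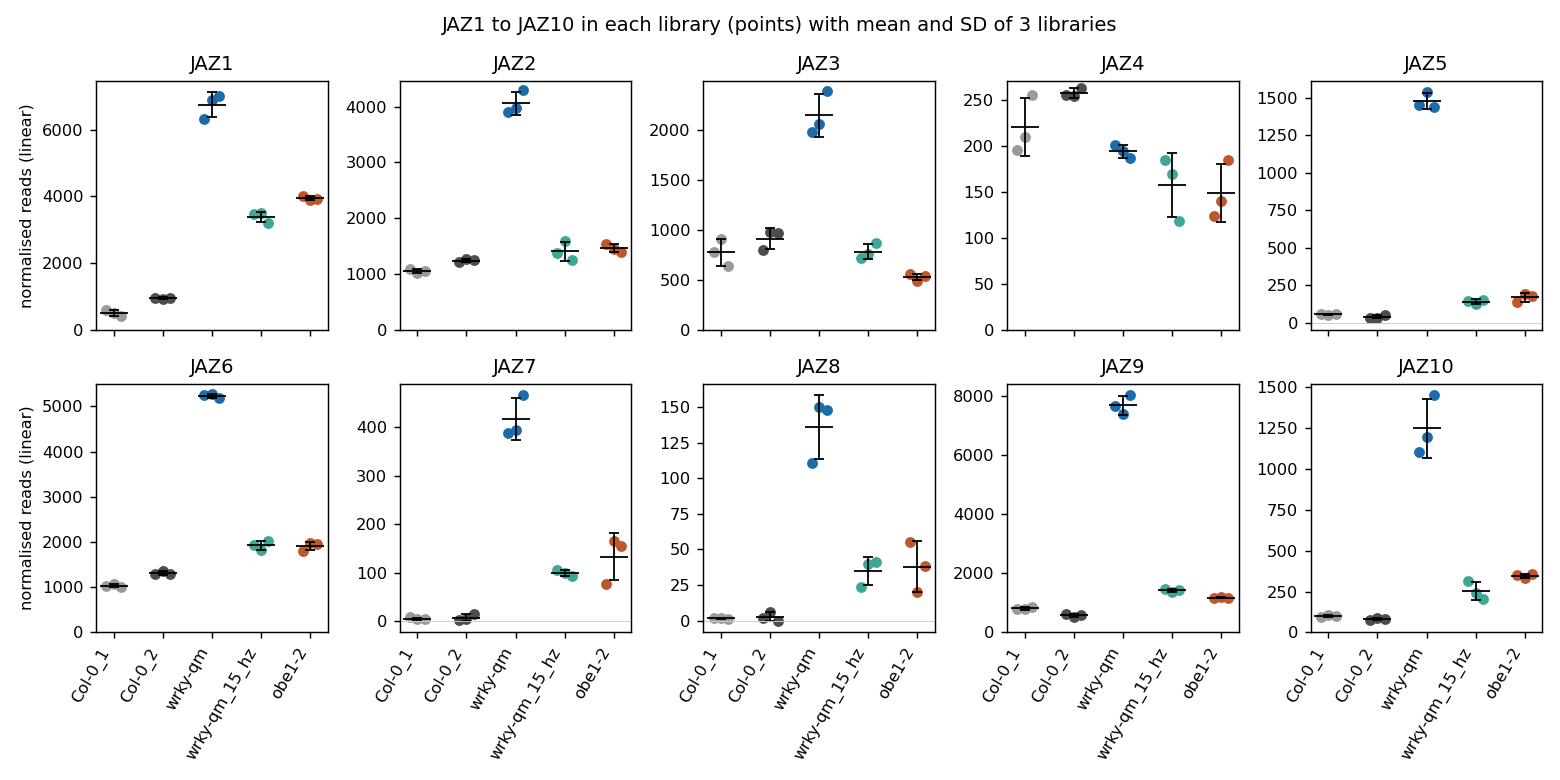
Normalised reads (linear axis, its scale set for each gene) of JAZ1 to JAZ10 in each of the 15 libraries. Points are libraries, and bars give the mean and SD of 3. The wrky-qm libraries stand above all others for 9 genes, and JAZ4 is the exception.

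In wrky-qm, 9 of 10 JAZ genes rose and none fell. All 9 rose by at least 2-fold, and in all 9 each wrky-qm library lay above each of the 6 wild-type libraries. Over all genes, 15.5% were called higher and 11.4% lower, and 19.6% had all wrky-qm libraries above all wild-type ones. The median log2 fold change of the 10 members was 3.40, against 0 over all genes tested. JAZ4 was the member not called.

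The pair without the canonical degron, JAZ7 and JAZ8, rose most. JAZ7 had 389, 394 and 467 normalised reads in the wrky-qm libraries. In the 6 wild-type libraries it had from 2.00 to 15.1, with a median of 4.31. The log2 fold change was 6.08 (SE 0.40, adjusted p = 6.57e-10). JAZ8, known to resist hormone-triggered degradation, had 110, 150 and 148 in wrky-qm. It was listed at 0 in 1 wild-type library and reached 6.07 in the highest, with a median of 1.88. Its log2 fold change was 5.69 (SE 0.48, adjusted p = 5.34e-08). The wild-type levels of both genes were close to the limit of detection, so the sizes of these folds are less firm than their direction: they ran from 5.32 to 6.42 for JAZ7 and from 4.34 to 6.08 for JAZ8 over the alternative settings.

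JAZ5 and JAZ6 are closely related to each other but moved by different amounts. JAZ5 had 1453, 1538 and 1440 normalised reads in wrky-qm against 33.6 to 60.4 in wild type (median 50.9). That is 31.1-fold on the log2(value + 1) scale, a log2 fold change of 4.96 (SE 0.17, adjusted p = 2.58e-14). JAZ6, already abundant in wild type at 1015 to 1357, had 5244, 5278 and 5189, a rise of 4.49-fold (log2 2.17, SE 0.044, adjusted p = 9.19e-18). None of these libraries overlapped wild type.

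JAZ1 and JAZ2 form another related pair, and JAZ1 was among the first JAZ proteins identified as a COI1 target. JAZ1 had 6327, 6902 and 7023 normalised reads in wrky-qm. Its log2 fold change was 3.31 (SE 0.068, adjusted p = 4.11e-17), made up of 3.76 against Col-0_1 and 2.85 against Col-0_2. JAZ2, which acts in guard cells in responses to the bacterial toxin coronatine, had 3905, 3982 and 4296, above 1017 to 1269 in wild type (log2 1.83, SE 0.060, adjusted p = 1.94e-14).

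JAZ3, JAZ4 and JAZ9 belong to one branch of the family and behaved differently from each other. JAZ9, one of the JAZ proteins that also bind DELLA repressors of gibberellin signalling, had 7661, 7406 and 8043 in wrky-qm. This was 11.2-fold above wild type (log2 3.49, SE 0.054, adjusted p = 2.42e-19). JAZ3, the gene of the dominant jasmonate-insensitive mutant jai3, had 1982, 2057 and 2392, above 640 to 977 in wild type (log2 1.36, SE 0.096, adjusted p = 1.17e-08). JAZ4 had 202, 195.0 and 187, beside a wild-type range of 195.3 to 264, so that 2 of its 3 libraries lay below all wild-type ones. Its log2 difference was -0.29, with a 95% interval of -0.62 to 0.04 (adjusted p = 0.685, limma), and it did not pass the test.

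JAZ10, a strong feedback repressor in wounded tissue, had 1102, 1194 and 1450 normalised reads in wrky-qm and 73.9 to 105 in wild type. The log2 fold change was 3.76 (SE 0.13, adjusted p = 4.66e-14). The annotation lists 7 transcripts for JAZ10 and the table gives 1 value per gene, so its splice forms were not resolved. A short gene on the opposite strand, AT5G02045, shares 3.21% of the JAZ10 exon bases and was listed at 0 in every group, and its part in the JAZ10 value cannot be read from these data.

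**Figure D3:**
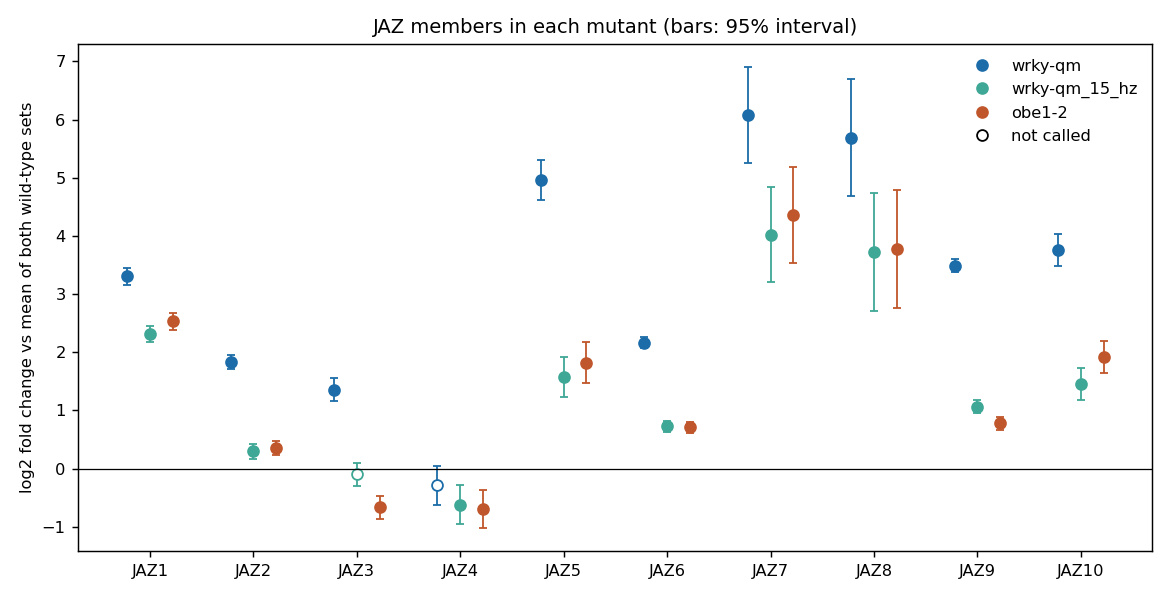
Log2 fold change of each member in each mutant, relative to wild type (mean over both sets), with 95% intervals that leave out the difference between the sets. Filled points passed the test against both sets. The wrky-qm values are the highest for all members, and the wrky-qm_15_hz and obe1-2 values lie close together for most.

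In wrky-qm_15_hz, 8 members rose and JAZ4 fell, beside 26.5% of all genes called higher and 27.4% called lower. The rises reached 2-fold in 6 members, and the median log2 fold change was 1.26 against -0.04 over all genes. In 7 members all wrky-qm_15_hz libraries were above all wild-type ones, as in 28.5% of all genes, and in JAZ4 all were below, as in 28.3%. JAZ7 had 105, 99.9 and 92.8 normalised reads and JAZ8 had 23.6, 39.8 and 41.0. Their log2 fold changes of 4.02 (SE 0.40, adjusted p = 1.55e-07) and 3.73 (SE 0.48, adjusted p = 8.75e-06) were again the highest of the 10 members.

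JAZ1 came next, with 3468, 3486 and 3212 in wrky-qm_15_hz (log2 2.31, SE 0.068, adjusted p = 1.65e-14). JAZ5 had 146, 125 and 151 (log2 1.57, SE 0.17, adjusted p = 4.42e-06), and JAZ10 had 315, 242 and 207 (log2 1.46, SE 0.13, adjusted p = 2.02e-07). JAZ9 rose by 1.06 on the log2 scale, to 1481, 1378 and 1430, and JAZ6 by 0.72, to 1929, 1832 and 2030. JAZ2 was the weakest of the calls: at 1373, 1587 and 1257 it overlapped wild type in its lowest library, and the log2 fold change of 0.30 (SE 0.060, adjusted p = 0.0359) lost its call under 7 alternatives, among them division of each library by its total (adjusted p = 1), quantile normalisation (0.304), a fit of the compared libraries alone (0.0591) and leaving out wrky-qm_15_hz replicate 2 (adjusted p = 0.301) or 1 (0.0504), or Col-0_2 replicate 1 (0.110) or 3 (0.0717). JAZ3 had 717, 761 and 864, within the wild-type range, with a log2 difference of -0.10 and a 95% interval of -0.30 to 0.10 (adjusted p = 1, limma). JAZ4 had 184, 170 and 118, below all wild-type libraries. It fell by 0.62 on the log2 scale (SE 0.16, adjusted p = 0.0247), a call that was lost without wrky-qm_15_hz replicate 3 (adjusted p = 0.173), without Col-0_1 replicate 3 (adjusted p = 0.122) and after quantile normalisation (adjusted p = 0.132).

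In obe1-2, 8 members rose and JAZ3 and JAZ4 fell, beside 29.2% of all genes called higher and 32.5% called lower. The rises reached 2-fold in 5 members, and the median log2 fold change was 1.303 against -0.08 over all genes. All 8 that rose had no library in common with the wild-type range, as in 31.2% of genes, and both that fell lay wholly below it, as in 33.0%. JAZ7 had 77.5, 166 and 155 (log2 4.37, SE 0.40, adjusted p = 2.86e-08) and JAZ8 had 55.5, 20.2 and 38.1 (log2 3.78, SE 0.48, adjusted p = 5.21e-06). The spread of these low-level genes was wide in obe1-2, but each library stayed above every wild-type one.

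JAZ1 had 4018, 3895 and 3916 normalised reads in obe1-2, 5.78-fold above wild type (log2 2.53, SE 0.068, adjusted p = 1.16e-15). JAZ10 had 348, 333 and 358 (log2 1.92, SE 0.13, adjusted p = 1.21e-09), and JAZ5 had 137, 189 and 179 (log2 1.82, SE 0.17, adjusted p = 2.74e-07). Smaller rises were seen in JAZ9, at 1165, 1205 and 1164 (log2 0.78), in JAZ6, at 1810, 1976 and 1949 (log2 0.71), and in JAZ2, at 1541, 1446 and 1399 (log2 0.36). The JAZ2 call in obe1-2 (adjusted p = 0.00465, limma) was lost when each library was divided by its total (adjusted p = 0.265) and after quantile normalisation (adjusted p = 0.182). JAZ3 had 553, 490 and 534, below every wild-type library, and fell by 0.67 on the log2 scale (SE 0.096, adjusted p = 0.000194). JAZ4, at 123, 140 and 185, fell by 0.69 (SE 0.16, adjusted p = 0.00951). The JAZ4 call was lost after quantile normalisation (adjusted p = 0.675), without Col-0_1 replicate 3 (adjusted p = 0.0579) and without obe1-2 replicate 1 (adjusted p = 0.0582).

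The 3 mutants share the same wild-type libraries, so they were also compared with each other directly. Relative to wrky-qm, 9 of 10 members were lower in wrky-qm_15_hz and none higher, beside 34.9% and 29.5% of all genes. The gap was widest in JAZ5, which fell by 3.39 on the log2 scale (SE 0.19, adjusted p = 1.77e-12), and narrowest among called members in JAZ1, which fell by 0.99 (SE 0.079, adjusted p = 4.60e-10). JAZ9 fell by 2.43, JAZ10 by 2.30 and JAZ7 by 2.06. JAZ4 differed by -0.33, with a 95% interval of -0.71 to 0.05 (adjusted p = 0.122, limma), and was called as lower after division by library totals (adjusted p = 0.0426). In all 10 members the wrky-qm_15_hz libraries lay below the wrky-qm ones, as in 36.2% of all genes, while none lay above, beside 31.8%. The wild-type levels do not enter the difference in this contrast or the next, but the wild-type libraries do enter the fitted spread behind its SE and p-value. In the way zeros are stored, wrky-qm is like Col-0_1 and the other mutants are like Col-0_2, so a difference between such sets, which was 0.92 for JAZ1, and the difference between these genotypes cannot be told apart. For JAZ1 the log2 fold changes against Col-0_1 and Col-0_2 were 3.76 and 2.85 in wrky-qm, 2.77 and 1.85 in wrky-qm_15_hz, and 2.99 and 2.07 in obe1-2.

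Relative to wrky-qm, obe1-2 also had 9 lower members and none higher, beside 38.9% and 31.1% of all genes. JAZ5 fell by 3.14 (SE 0.19, adjusted p = 3.89e-12) and JAZ9 by 2.71 (SE 0.063, adjusted p = 1.90e-19), while JAZ1 fell by 0.77 (SE 0.079, adjusted p = 1.62e-08). JAZ8 fell by 1.91 (adjusted p = 0.00446, limma), a call lost after quantile normalisation (adjusted p = 0.105). JAZ4 differed by -0.40, with an interval of -0.78 to -0.02 (adjusted p = 0.0571), and its sign turned after quantile normalisation, to 0.17, where it was not called either. Its call was gained with a minimum mean of 50 (adjusted p = 0.0428) and after division by totals (adjusted p = 0.0223). In all 10 members the obe1-2 libraries lay below the wrky-qm ones, as in 39.9% of all genes, and in none above, beside 33.5%.

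Between obe1-2 and wrky-qm_15_hz, 4 members were called. JAZ1 and JAZ10 were higher in obe1-2 and JAZ3 and JAZ9 were lower, 2 and 2 of 10 beside 20.3% and 26.1% of all genes. The same 4 were the members without overlap between these groups, 2 above (25.1% of all genes) and 2 below (30.4%). JAZ3 fell by 0.57 (SE 0.11, adjusted p = 0.00025) and JAZ9 by 0.28 (SE 0.063, adjusted p = 0.000903). JAZ1 was higher by 0.22 (SE 0.079, adjusted p = 0.0273) and JAZ10 by 0.46 (SE 0.15, adjusted p = 0.0173), and both calls were lost without wrky-qm_15_hz replicate 3 (adjusted p = 0.106 and 0.107). The JAZ1 call was also lost without any 1 of the obe1-2 replicates (adjusted p = 0.0507 to 0.0810) and after quantile normalisation (adjusted p = 0.0847), and the JAZ10 call without obe1-2 replicate 3 (adjusted p = 0.0517) or wrky-qm_15_hz replicate 2 (adjusted p = 0.0526). The other 6 members did not pass the test, except that JAZ5 did after quantile normalisation (adjusted p = 0.0383). The 95% interval of their log2 difference was narrow for JAZ6 (-0.12 to 0.09) and JAZ2 (-0.08 to 0.21), wider for JAZ4 (-0.45 to 0.31) and JAZ5 (-0.15 to 0.65), and wide enough for JAZ7 (-0.61 to 1.29) and JAZ8 (-1.11 to 1.22) to hold changes of more than 2-fold in either direction for JAZ8 and upward for JAZ7.

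Summed per kilobase, the 10 members stood at 2442 ± 56.1 normalised reads in Col-0_1 and 2885 ± 54.8 in Col-0_2. The mutants wrky-qm, wrky-qm_15_hz and obe1-2 reached 16094 ± 655, 5288 ± 146 and 5493 ± 16.1. The sums of wrky-qm, from 15529 to 16812, lay far above those of every other group, and the sums of wrky-qm_15_hz, from 5121 to 5393, lay just below those of obe1-2, from 5474 to 5503. The make-up of the pool changed as well. JAZ2 made up 31.3% ± 1.05 of it in Col-0_1 and 31.2% ± 0.490 in Col-0_2, but 18.3% ± 0.213, 19.3% ± 1.86 and 19.4% ± 1.01 in the mutants, in the same order. JAZ1 took 11.3% ± 1.63 and 18.0% ± 0.658 in wild type, then 23.2% ± 0.713 in wrky-qm, 35.5% ± 0.648 in wrky-qm_15_hz plants and 39.8% ± 0.777 in the obe1-2 mutant, and it was the most abundant member in both of the latter.

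The leading member of wrky-qm was JAZ9 instead, at 4155 ± 173 per kilobase and 25.8% ± 0.775 of the pool, compared with 18.0% ± 1.26 and 10.8% ± 1.14 in wild type and 14.6% ± 0.704 and 11.6% ± 0.212 in the other mutants. JAZ5, JAZ7 and JAZ8 together with JAZ10 stayed minor in every group: none of them exceeded 4.11% of the pool on average, the value of JAZ5 in wrky-qm. JAZ4, the member that rose in no mutant, was the lowest of all 10 in wrky-qm at 103 ± 3.80 per kilobase.

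**Figure D4:**
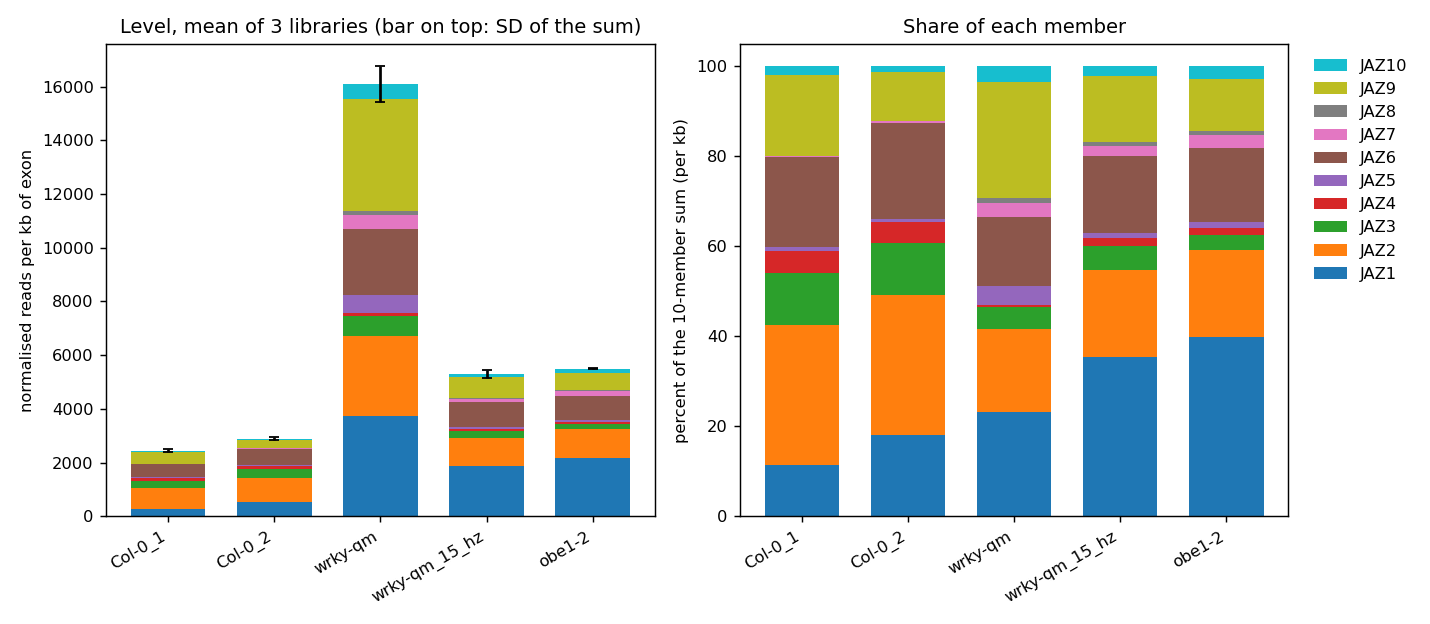
Level of each member per kilobase of exon (left, stacked means of 3 libraries, with the SD of the sum) and its share of the summed level (right, in percent). The wrky-qm sum of 16094 stands above the other groups, and JAZ1 takes a larger share in wrky-qm_15_hz (35.5%) and obe1-2 (39.8%) than in wild type.

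The counts for the lists that follow stand beside the shares of all genes called higher and lower, which were 15.5% and 11.4% in wrky-qm, 26.5% and 27.4% in wrky-qm_15_hz, and 29.2% and 32.5% in obe1-2. Shares near these, such as 2 of 7 in the ERF branch, are not a result about a list.

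Other TIFY proteins, the wider family to which the JAZ proteins belong, were counted first. Of 6 tested, 3 rose and none fell in wrky-qm, 1 rose and 1 fell in wrky-qm_15_hz, and 3 rose and 2 fell in obe1-2. After division by library totals the counts in wrky-qm_15_hz were 0 and 2, and in obe1-2 1 and 2. JAZ13, a further non-canonical JAZ with an EAR motif, was near detection in wild type (1.27 ± 1.48 and 1.96 ± 0.104) and reached 250 ± 15.2 in wrky-qm (log2 6.71, SE 0.58, adjusted p = 1.07e-07), close in size to JAZ7 and JAZ8. It stood at 2.97 ± 2.67 in wrky-qm_15_hz and, with a wide spread, at 14.9 ± 14.3 in obe1-2, where it was called higher (log2 2.34, SE 0.58, adjusted p = 0.0110). JAZ12 rose by 1.45 in wrky-qm (adjusted p = 5.49e-14, limma). Its log2 rises of 0.17 in wrky-qm_15_hz and 0.22 in obe1-2 were no longer called after division by library totals (adjusted p = 1 and 0.463). TIFY8 fell by 0.97 in wrky-qm_15_hz and by 1.43 in obe1-2, PPD1, a leaf-growth regulator, fell by 0.79 in obe1-2, and its relative PPD2 rose by 0.50 in wrky-qm. The PPD1 call was lost after quantile normalisation (adjusted p = 0.116). JAZ11, named because its call depends on scaling, rose by 0.41 in obe1-2 (adjusted p = 0.0177, limma), a call lost after division by totals (adjusted p = 0.192).

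Among enzymes of jasmonate synthesis, 11 of 13 tested rose and 1 fell in wrky-qm, and 12 rose with none falling in each of the other mutants. LOX3, a 13-lipoxygenase of the first step, rose from 610 ± 61.9 and 632 ± 40.3 to 5939 ± 97.7 in wrky-qm (log2 3.26, SE 0.060, adjusted p = 9.06e-19). OPR3, which reduces the cyclic precursor OPDA, rose by 2.33 in wrky-qm, and OPCL1, a CoA ligase of the peroxisomal steps, by 2.22, 1.16 and 1.60 in wrky-qm, wrky-qm_15_hz and obe1-2. ACX1, an acyl-CoA oxidase of the same steps, rose by 0.84 in wrky-qm_15_hz and 0.98 in obe1-2. LOX3, OPR3 and ACX1 were also called higher in the mutants not named for them, LOX3 by 1.18 and 1.45 in wrky-qm_15_hz and obe1-2, OPR3 by 0.49 and 0.79 there, and ACX1 by 0.44 in wrky-qm. LOX2, the abundant leaf lipoxygenase, went the other way between mutants: it fell by 0.37 in wrky-qm and rose by 1.59 in wrky-qm_15_hz and by 2.51 in obe1-2. DAD1, a lipase of anther tissue, was near 0 and not tested.

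Genes of jasmonate breakdown also rose, 8 of 10 in wrky-qm with none falling, and 6 of 10 with 1 falling in each of the other mutants. CYP94B3, which hydroxylates the active hormone, went from 96.5 ± 10.3 and 163 ± 33.1 to 1920 ± 59.3 in wrky-qm (log2 3.94, SE 0.13, adjusted p = 6.13e-14), while it stood at 155 ± 5.51 in wrky-qm_15_hz and 144 ± 20.8 in obe1-2. The amidohydrolase ILL6 rose by 2.46, 0.76 and 1.53 in wrky-qm, wrky-qm_15_hz and obe1-2, and its relative IAR3 by 0.77, 1.04 and 1.39. JOX2, a jasmonic acid oxidase, rose by 2.37, 2.80 and 3.74 in wrky-qm, wrky-qm_15_hz and obe1-2. JOX4, of the same family, was listed at 0 in Col-0_1 and at 0.632 ± 1.09 in Col-0_2, and had 40.7 ± 7.11, 222 ± 24.9 and 372 ± 29.1 in these mutants. JOX1 was the gene called lower, with log2 fold changes of -2.96 in wrky-qm_15_hz and -3.24 in obe1-2 (SE 0.72 in both). It had few reads and a wide spread there, at 8.66 ± 8.05 and 7.78 ± 9.72. The wild-type sets had 36.8 ± 3.75 and 57.7 ± 6.53, so the size of these folds is less firm than their direction. Its obe1-2 call was lost after quantile normalisation (adjusted p = 0.0663, limma). CYP94C1, also in this list, rose by 3.59, 2.87 and 2.64 in wrky-qm, wrky-qm_15_hz and obe1-2.

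Partners of the JAZ proteins in perception and transcription moved in both directions. Of 11 tested, 3 rose and 2 fell in wrky-qm, 3 and 1 in wrky-qm_15_hz, and 5 and 3 in obe1-2, and the counts depend on scaling: after quantile normalisation none rose and 5 fell in wrky-qm_15_hz. JAM1, a bHLH repressor that competes with MYC factors, rose by 1.85 in wrky-qm (SE 0.057, adjusted p = 6.62e-15), and JAM2 by 0.62. MYC4 fell by 0.66 in wrky-qm and by 0.42 in obe1-2. MYC3 rose by 0.46 in wrky-qm_15_hz (not called after quantile normalisation) and by 0.59 in obe1-2. MYC5, best known from stamens, fell from 372 ± 32.2 and 206 ± 15.9 to 11.4 ± 2.53 in wrky-qm_15_hz and 3.85 ± 6.54 in obe1-2. EIL1, an ethylene-pathway transcription factor that JAZ proteins bind, fell by 0.57 in obe1-2 and by 0.33 in wrky-qm. The corepressor TPL rose by 0.37 in wrky-qm_15_hz and by 0.25 in obe1-2, and both calls were lost after quantile normalisation (adjusted p = 0.152 and 1). MYC2 was listed at 0 in all 15 libraries and is not read as absent, since in the annotation used here 98.5% of its exon bases are shared with AT1G32630 on the opposite strand, a gene with 42.8 to 71.6 normalised reads per library.

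Output genes moved in both directions. Of 5 genes of the MYC branch, 2 rose and 1 fell in wrky-qm, 2 rose and 1 fell in wrky-qm_15_hz, and 2 rose and 3 fell in obe1-2. VSP2, a vegetative storage protein and classic jasmonate marker, stood at 9755 ± 878 and 4565 ± 127 in the wild-type sets and 8612 ± 411 in wrky-qm, and dropped to 252 ± 30.6 in obe1-2 (log2 -4.72, SE 0.061, adjusted p = 1.14e-21). VSP1 rose by 1.099 in wrky-qm and fell by 1.56 in obe1-2. TAT3, a wound-induced aminotransferase, rose by 1.04 in wrky-qm, by 4.14 in wrky-qm_15_hz and by 5.80 in obe1-2 (2127 ± 36.6, from 37.3 ± 16.4 and 43.1 ± 19.8), and CLH1, a chlorophyllase, fell by 1.28 in wrky-qm_15_hz and by 1.78 in obe1-2. LOX2 is also in this list.

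In the ERF branch, 1 of 7 rose and 4 fell in wrky-qm, 2 rose and none fell in wrky-qm_15_hz, and 2 rose and 1 fell in obe1-2. The gene that rose in wrky-qm was THI2.1, at only 3.53 ± 1.89, a call lost after quantile normalisation (adjusted p = 0.0615, limma). The count in wrky-qm_15_hz depends on the wild-type set: 7 were higher against Col-0_1 alone and 2 against Col-0_2 alone. The transcription factors ORA59 and ERF1 rose in wrky-qm_15_hz, by 2.62 and 3.10, and in obe1-2, by 2.51 and 2.85. In wrky-qm ORA59 fell by 1.58 (adjusted p = 0.0248, limma). The defensin genes PDF1.2, PDF1.2c and PDF1.3, whose near-identical sequences may share reads, were each under 1 normalised read in wrky-qm, but the wild-type sets differ widely: PDF1.2 had 43.9 ± 5.15 in Col-0_1 and 802 ± 9.02 in Col-0_2. PDF1.2 in obe1-2, at 23.7 ± 3.62, passed the test as lower (adjusted p = 0.0322, limma) and not after quantile normalisation (adjusted p = 1).

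**Figure D5:**
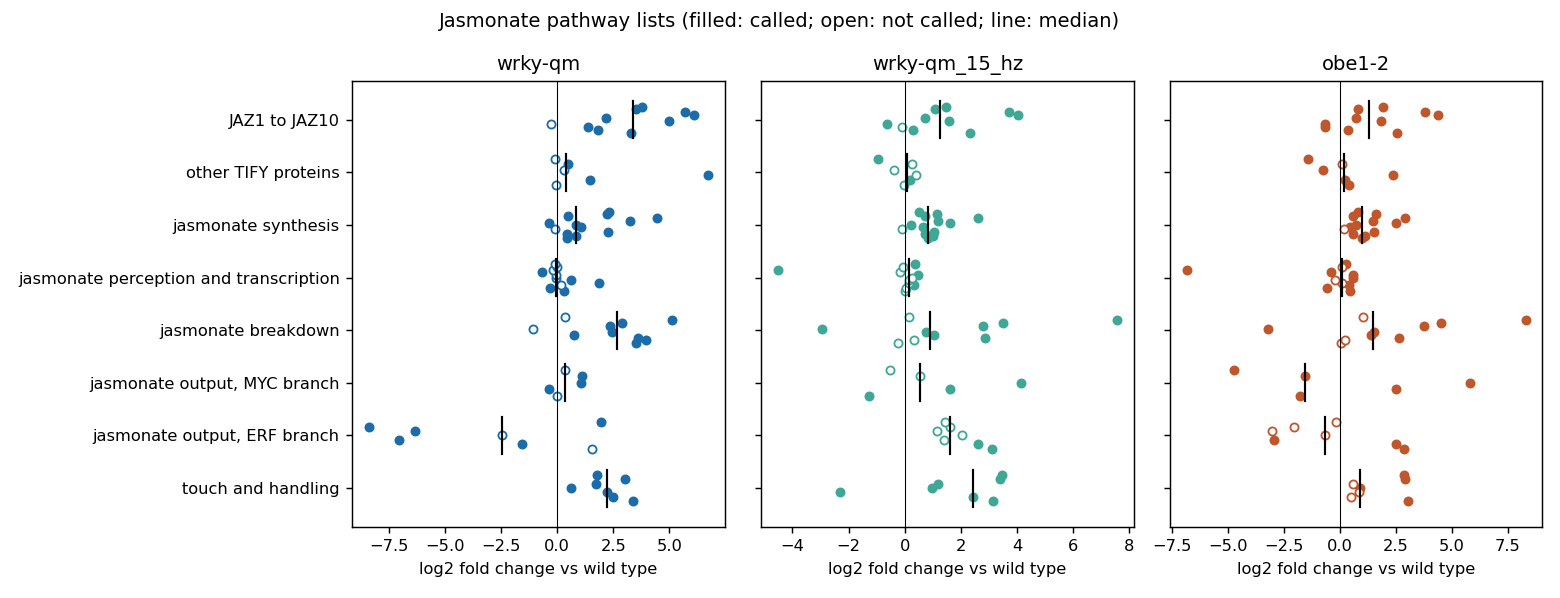
Log2 fold change against wild type for each tested gene of each list, by mutant (the horizontal scale differs between panels). Filled points were called, open points were not, and vertical lines are list medians. In wrky-qm the JAZ median of 3.40 is the highest of the lists. The medians of breakdown (2.67), touch and handling (2.20), synthesis (0.85), other TIFY (0.40) and MYC branch (0.37) genes also lie above 0.

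A list of genes that respond to touch and handling is given beside the JAZ genes. All 7 of this list were called higher in wrky-qm, 6 of 7 were higher and 1 lower in wrky-qm_15_hz, and 4 of 7 were higher in obe1-2, while 6 of 7 were also higher in Col-0_2 than in Col-0_1. The summed level of the list per library was 1748 to 1822 in Col-0_1, 4662 to 5043 in Col-0_2, 11989 to 12817 in wrky-qm, 12481 to 13077 in obe1-2 and 18527 to 21233 in wrky-qm_15_hz. It was thus highest in wrky-qm_15_hz, where TCH4 alone had 10018 ± 705. Single genes differed in this. The means of TCH1, TCH3 and TCH4 were highest in wrky-qm_15_hz, and those of TCH2, CML37, CML38 and CML39 in wrky-qm. For CML37 and CML38 the libraries of these groups overlapped. Calmodulin-like TCH3 rose by 3.04, 3.40 and 2.88 in wrky-qm, wrky-qm_15_hz and obe1-2, and the cell wall enzyme TCH4 by 1.76, 3.47 and 2.84. Calmodulin-like CML37 rose by 3.39, 3.12 and 3.01 in the same order. TCH2 rose by 1.72 and CML38 by 2.49 in wrky-qm, and in wrky-qm_15_hz they rose by 1.18 and 2.42. Their part in the JAZ differences was not tested.

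Some members had group patterns much like each other. Over the 5 group means of log2(value + 1), each centred on its own mean, the root mean square difference was 0.19 between JAZ2 and JAZ6, 0.23 between JAZ7 and JAZ8, and 0.42 between JAZ9 and JAZ10. Among 18494 other genes that reached a group mean of 100, the closest to JAZ10 was LOX3 (0.24), which climbs to 5939 in wrky-qm. JAZ8 was nearest to NAC019 (0.45), a NAC transcription factor gene with 62.6 and 94.5 normalised reads in wild type, 2146 in wrky-qm, 624 in obe1-2 and 531 in wrky-qm_15_hz. JAZ7 was nearest to MAPKKK21 (0.45), JAZ3 to DFL1 (0.086), JAZ4 to UREF (0.051) and JAZ6 to LYK5 (0.10). For JAZ1, JAZ2, JAZ5 and JAZ9 the nearest genes were AT2G32140 (0.083), AT4G25670 (0.048), AT1G64380 (0.44) and AT4G12410 (0.16). These are likenesses over 5 groups with shared wild-type and library effects, given as a description.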

How the data were processed

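The authors deposited 1 table of normalised read counts per gene and library, which are listed as signal since their unit is not stated anywhere. Per the submitters' processing notes, bcl2fastq, HISAT2 and edgeR were used with the genome build TAIR10. Versions, roles, annotation and strandedness are not given in the sources used here. The values are not whole and no raw counts could be recovered, so count-based tests were not run. Per the labels, TRIzol total RNA was read as 150-bp pairs.

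Values under 1e-06 count as 0. The limma-trend model (limma 3.58.1, R 4.3.3) was fitted to log2(value + 1) of all 15 libraries in 5 groups, for the 25085 of 32548 genes whose mean reached 1 in any group, and was tested on simulated data. Adjustment over these genes followed Benjamini and Hochberg, and the threshold was 0.05. Of the other genes, 6167 were at 0 in every library.

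In Col-0_1 and wrky-qm many near-zero values are stored where the other groups have an exact 0, and no label names a batch, so changes had to hold against both wild-type sets. Loci were matched to TAIR10.1 by locus tag (32548 of 32548), and exon lengths and promoter windows came from its annotation, with no coordinates taken from the deposited table. One promoter window is not reported here. No 2 libraries were identical.

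Members and lists were chosen with earlier results of these data known. All 10 members are named. From each other list, up to 3 called genes of smallest p per mutant are named, and per member the gene of nearest pattern. AT1G32630, AT5G02045, CML39, CYP94C1, DAD1, JAZ11, JOX1, MYC2, TCH1, THI2.1 and the organ and mutated genes were named outside that rule. Alternatives were the pseudocount, the low-value filter, scaling, the libraries fitted, the wild-type set, a replicate block and leaving out each library.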

Additional observations from a re-analysis of the deposited data

How the results depend on the processing

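No JAZ call turned its direction under any alternative. Over 70 member-by-comparison values, 1664 of 1700 alternative values kept their side of the threshold, 26 lost a call and 10 gained one. Leaving out each library in turn left 9 members higher and 0 lower in wrky-qm against wild type, 7 to 8 higher and 0 to 1 lower in wrky-qm_15_hz, and 8 higher and 1 to 2 lower in obe1-2. Against wrky-qm, 9 were lower in wrky-qm_15_hz and 9 to 10 in obe1-2, with 0 higher in both. In obe1-2 against wrky-qm_15_hz, 0 to 2 were higher and 2 lower, and in Col-0_2 against Col-0_1, 2 to 3 were higher and 1 to 2 lower. After quantile normalisation the lower members numbered 0 in wrky-qm_15_hz against wild type, 1 in obe1-2 against wild type and 2 in Col-0_2 against Col-0_1, and 2 in this last comparison with a minimum mean of 50. The cause was not tested. JAZ5 was the member that joined there, and JAZ4 the member lost.

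Same-numbered replicates did not deviate together (correlations of -0.0976 to 0.0502 over 30 pairs, and 1 of 15 libraries correlated best with its own number). Pairs of different number and group ran from -0.0622 to 0.0776. No effect shared by number was seen, but such correlations cannot tell whether same-numbered samples were grown or prepared together. With the replicate block, 9, 8 and 8 members were higher in wrky-qm, wrky-qm_15_hz and obe1-2, the same counts as without it.

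Scaling moved the all-gene balance. Division by library totals shifted the median log2 fold change of all genes to -0.19 in wrky-qm_15_hz and -0.22 in obe1-2, and the share of calls that were higher from 49.2% to 36.7% and from 47.3% to 38.9%. In wrky-qm that share went from 57.6% to 42.4% after quantile normalisation. The member calls that total or quantile scaling ended or added were those of JAZ1, JAZ2, JAZ4, JAZ5 and JAZ8, and their values stand above or here: JAZ5 in Col-0_2 against Col-0_1 was called after quantile normalisation (adjusted p = 0.0395, limma). Counts for the other lists were recomputed under alternatives chosen after seeing the data: 154 of 192 stayed within 1.5 times. Depth limits JAZ7 and JAZ8, which were near detection in wild type.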
